A study of Mus musculus with 10 samples.

Results

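The genes described here are 10 components and transcriptional outputs of the canonical Wnt pathway, measured in mouse embryonic stem cells (ESCs) that lacked either the miRNA-processing factor DGCR8 or the RNA helicase DDX6. They were selected by symbol from the 51467 genes of a count table, from a list drawn up with earlier results of these data known, so their values are given as a description and no test was run over the list. The list holds β-catenin (Ctnnb1), the 4 TCF/LEF factors through which it acts (Tcf7, Tcf7l1, Tcf7l2 and Lef1), the feedback inhibitors Axin2 and Nkd1, and the transcription factor genes Sp5, Cdx1 and T. Of the 10 genes, 9 passed the filter of 3 CPM (the count of a gene scaled to the size of its library) in 3 libraries, together with 11683 genes in all, and T did not. Each adjusted p-value is that of the gene in a limma fit across all tested genes.

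All cells were grown in LIF, fetal bovine serum and 2i, the pair of inhibitors PD0325901 and CHIR99021. Wild-type (WT) cells of the V6.5 line gave 3 libraries. The DGCR8 KO libraries, also 3, came from 1 knockout line made in earlier work, and the 4 DDX6 KO libraries came from 2 clones made from V6.5 cells with CRISPR, with 2 libraries of each. With 1 line or 2 clones per knockout, the effect of the lost gene and the history of the line cannot be told apart. Nothing in the labels says that the libraries came from separate cultures, so the p-values measure the spread between these libraries, which may be technical.

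In canonical Wnt signalling, a ligand bound to Frizzled and LRP receptors stops a cytoplasmic destruction complex, built on Axin and APC, from marking β-catenin for degradation through the kinase GSK3. Stabilised β-catenin then enters the nucleus, where it meets TCF/LEF factors on DNA and changes the transcription of their target genes. CHIR99021 inhibits GSK3 and so acts at this step without a ligand, and every library here, controls included, came from cells under that inhibitor. In naive ESCs TCF7L1 is best known as a repressor of self-renewal genes, while TCF7 and LEF1 act mostly as activators. Axin2, Nkd1, Sp5, Cdx1 and T are well-known targets that respond to β-catenin, so that their mRNA levels are commonly read as Wnt output.

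DGCR8 is needed to make most mature miRNAs, including the ESCC family, whose members are abundant in ESCs and share a seed. The 5 mature members found in the RefSeq miRNA table (GRCm38.p6) are shown because their seed was used to look for matches in the 3′ UTRs of the 10 genes. Capitals mark the seed, bases 2 to 8, which is the same in all 5.
mmu-miR-291a-3p: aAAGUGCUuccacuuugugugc
mmu-miR-294-3p: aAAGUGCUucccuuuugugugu
mmu-miR-295-3p: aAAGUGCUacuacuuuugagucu
mmu-miR-302b-3p: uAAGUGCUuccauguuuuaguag
mmu-miR-302d-3p: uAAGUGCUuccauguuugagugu

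A match was the letters AGCACTT or GCACTTA on the sense strand, or both overlapping as AGCACTTA, in the annotated 3′ UTR of 1 coding transcript per gene. Of the 10 genes, 2 held a match, Tcf7 and Lef1 with 1 each, against 20.0% of the 10955 tested genes with such a UTR. The 30 bases around each are given 5′ to 3′ on the strand of the gene, with the match in capitals. The Tcf7 window lies at chr11:52252449-52252478 on the minus strand and the Lef1 window at chr3:131224067-131224096 on the plus strand (GRCm38).
Tcf7: cctataaccccAGCACTTgcgagatagagg
Lef1: gtaaaaagcccAGCACTTgaattgttcttt

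TCF/LEF factors bind DNA at a short element, here searched as CTTTGATC, as the shorter CTTTGAT contained in it, and as CTTTGAA, on both strands of the RefSeq promoter table, which runs from 250 bases before to 50 bases after each start site. Promoters of 9 of the 10 genes were in that table, 15 in all, and Cdx1 was not among them. Only Sp5 held CTTTGATC, which 0.938% of the 32851 promoters held, and CTTTGAT, which 3.73% held. CTTTGAA was found in T alone of the 9, and in 5.14% of all promoters. The 250 bases before the start site are shown for both genes with the element in capitals. It begins 104 bases before the start of Sp5 (chr2:70474673-70474922, plus strand, GRCm38.p6). In T (chr17:8434173-8434422, plus strand) it begins 235 bases before the start and reads on the antisense strand. These matches are descriptions of letters and not evidence of binding.
Sp5: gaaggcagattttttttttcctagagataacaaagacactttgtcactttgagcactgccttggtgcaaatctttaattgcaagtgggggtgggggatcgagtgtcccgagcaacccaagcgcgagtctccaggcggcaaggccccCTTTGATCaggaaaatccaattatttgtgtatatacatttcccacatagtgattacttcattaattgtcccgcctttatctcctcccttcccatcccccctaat
T: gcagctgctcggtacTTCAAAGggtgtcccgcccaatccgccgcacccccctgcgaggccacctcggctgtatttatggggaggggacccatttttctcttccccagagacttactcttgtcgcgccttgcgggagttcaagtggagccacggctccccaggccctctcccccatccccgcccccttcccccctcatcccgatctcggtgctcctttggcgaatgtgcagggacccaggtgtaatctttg

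The 2 targeted genes were read first, as a check of the labels. Dgcr8 was at 10.1, 9.16 and 15.5 CPM in DGCR8 KO against 50.4, 52.1 and 65.8 CPM in WT, a log2 fold change of -2.34 (SE 0.25, adjusted p = 9.44e-07). Ddx6 was at 149 and 135 CPM in clone 1 and at 39.0 and 25.7 CPM in clone 2 of DDX6 KO, against 505 to 586 CPM in WT, so that mRNA was left in both clones. The reads tag the 3′ end, away from the edited site of Ddx6, so its level does not check the edit itself, and where Dgcr8 was deleted is not given in the sources used here. The libraries held 2131156 to 4745083 counts over genes, and 3 counts, taken as the floor, were worth 0.669 to 1.44 CPM. All 8 embryonic stem cell markers, among them Pou5f1 and Sox2, passed the filter, and their summed level was 2363 to 2565 CPM in WT, 2332 to 2539 CPM in DGCR8 KO and 2204 to 2619 CPM in DDX6 KO. On adjusted p alone 2 of the 8 rose and 3 fell in DGCR8 KO, 62.5% beside 36.3% of all tested genes. Among these, Zfp42 missed the threshold in edgeR's quasi-likelihood test (adjusted p = 0.0565), in limma-trend (0.053) and, among others, without DGCR8 KO 1 (0.177). It lies on chromosome 8, whose median log2 fold change was -0.45 in DGCR8 KO. Klf4 missed the threshold without WT 1 (0.0631), WT 3 (0.0765) or DGCR8 KO 2 (0.115), and Utf1 without WT 2 (0.0524). In DDX6 KO 2 of the 8 fell, 25% beside 34.5%. Of the markers that moved, Dppa3 passed the fold limit of 1 given below. It fell by 2.29 in DGCR8 KO (adjusted p = 0.000633) and by 2.11 in DDX6 KO (adjusted p = 0.000359) on the log2 scale. Fibroblast markers summed to at most 9.52 CPM in any library.

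The messenger RNA of β-catenin differed little between genotypes. Ctnnb1 (chr9:120933400-120960507, mm10) was at 954, 1068 and 983 CPM in the WT libraries. In DGCR8 KO it was at 923, 968 and 879 CPM, and in DDX6 KO at 928 and 997 CPM in clone 1 and 905 and 839.9 CPM in clone 2. The ranges of the groups overlapped. Against WT the log2 fold change was -0.12 (95% confidence interval -0.30 to 0.07, adjusted p = 0.327) in DGCR8 KO and -0.13 (-0.30 to 0.04, adjusted p = 0.24) in DDX6 KO. A change of mRNA as large as 1 on the log2 scale lay far outside both intervals. CHIR99021 acts on the protein and not on this mRNA, and protein was not measured in these libraries.

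Of the TCF/LEF factors, Tcf7l2 was higher in both knockouts, Lef1 was at or under the floor in DDX6 KO, and Tcf7l1 and Tcf7 did not pass the test in either. Tcf7l1 (chr6:72626378-72789254) encodes the repressor of naive genes. Its level was 516, 453 and 474 CPM in WT, 474, 412 and 536 CPM in DGCR8 KO, and 521, 397, 493 and 381 CPM in DDX6 KO, with overlap between all groups. The log2 fold change was -0.03 (-0.29 to 0.24, adjusted p = 0.891) in DGCR8 KO and -0.11 (-0.36 to 0.13, adjusted p = 0.477) in DDX6 KO.

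Tcf7 (chr11:52252371-52283014), which encodes an activating TCF, was at 44.2, 51.1 and 34.8 CPM in WT. DGCR8 KO libraries held 46.2, 41.1 and 40.3 CPM, and those of DDX6 KO 41.8, 49.7, 44.0 and 43.1 CPM. Every knockout library lay inside the WT range. The intervals of the log2 fold change ran from -0.32 to 0.37 in DGCR8 KO (adjusted p = 0.922) and from -0.23 to 0.40 in DDX6 KO (adjusted p = 0.687). Its 3′ UTR is one of the pair with an ESCC seed match shown above.

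Tcf7l2 (chr19:55741810-55933654), a TCF factor with both activating and repressing forms, rose in both knockouts. It was at 34.6, 38.2 and 33.2 CPM in WT. In DGCR8 KO the level was 84.5, 116 and 83.5 CPM, and in DDX6 KO it was 53.5 and 69.9 CPM in clone 1 and 53.5 and 50.9 CPM in clone 2. The 3 groups did not overlap, with WT lowest and DGCR8 KO highest. It rose by a log2 fold change of 1.41 (SE 0.17, adjusted p = 3.91e-06) in DGCR8 KO and of 0.68 (SE 0.17, adjusted p = 0.0042) in DDX6 KO. The direct contrast of the knockouts was 0.73 (SE 0.14, adjusted p = 0.000466), higher in DGCR8 KO. No ESCC seed match was found in its annotated 3′ UTR.

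Lef1 (chr3:131110471-131224356), which encodes the activator LEF1, was at 18.7, 9.54 and 14.7 CPM in WT. DGCR8 KO libraries held 28.8, 9.50 and 20.4 CPM, a wide spread that took in the WT range. In DDX6 KO the 4 libraries held 1, 3, 1 and 0 counts, all at or under the floor, and none overlapped any library of the other groups. It passed the filter only through WT and DGCR8 KO, where all 6 libraries exceeded 3 CPM and no DDX6 KO library did. Against that floor Lef1 was at least 13.04-fold lower in DDX6 KO than in WT (adjusted p = 0.00033). The fitted log2 fold change of -4.89 (SE 0.87) is no bound, since it depends on how values near 0 are treated. In DGCR8 KO the difference from WT was 0.39 (-0.32 to 1.105, adjusted p = 0.388), and the direct contrast of the knockouts passed the threshold (adjusted p = 8.16e-05).

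**Figure D1:**
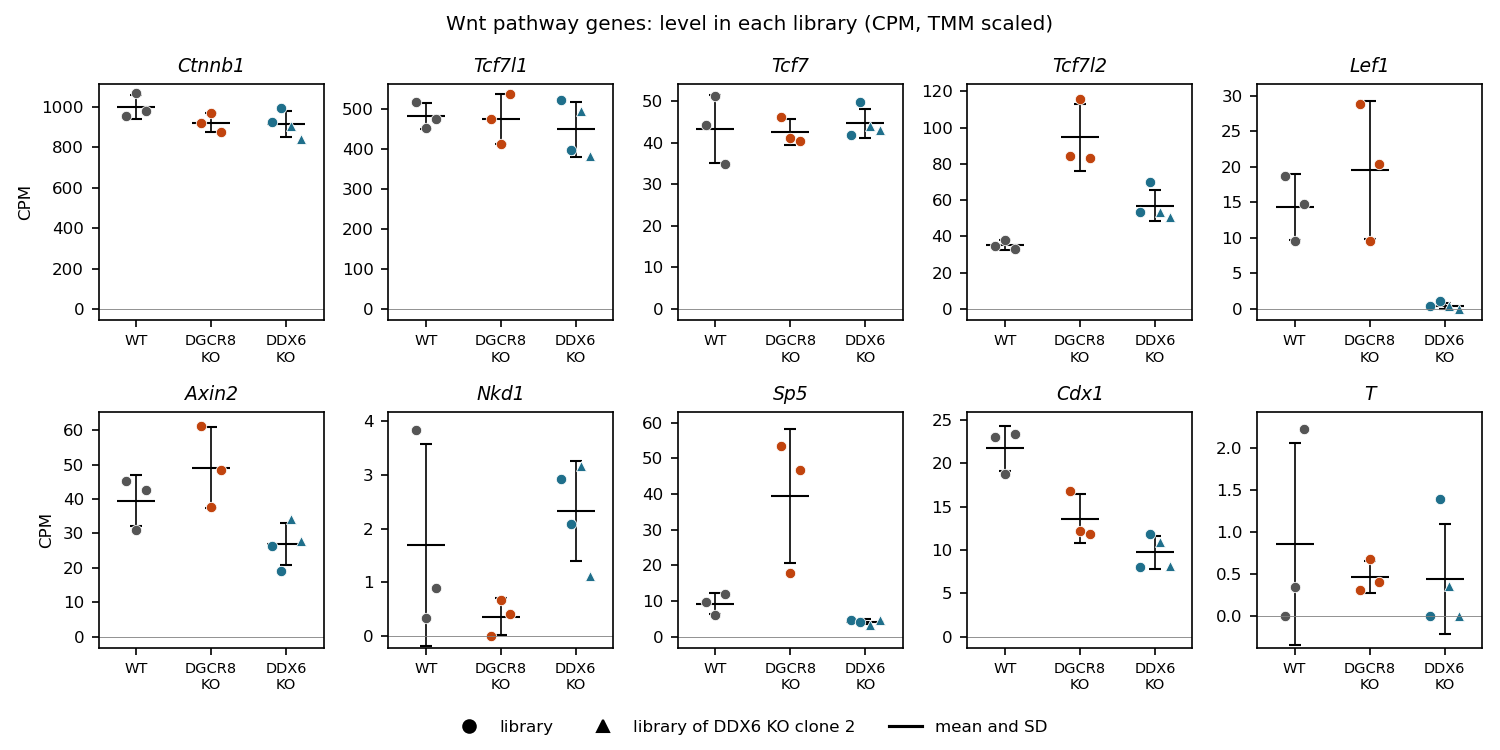
Level of each of the 10 genes in every library, in CPM on a linear axis of its own in each panel, for WT, DGCR8 KO and DDX6 KO; triangles are clone 2 of DDX6 KO, the horizontal line is the group mean and the bar its SD. Tcf7l2 lies between 83.5 and 116 CPM in DGCR8 KO against 33.2 to 38.2 CPM in WT, and Lef1 at or under 1.04 CPM in all 4 DDX6 KO libraries.

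The feedback inhibitors gave less regular values. Axin2 (chr11:108920349-108950783), the scaffold of the destruction complex that Wnt signalling itself induces, was at 45.1, 31.0 and 42.6 CPM in WT. It was at 61.2, 37.7 and 48.5 CPM in DGCR8 KO and at 26.4, 19.1, 34.1 and 27.7 CPM in DDX6 KO. WT overlapped both knockouts, whereas the knockouts did not overlap each other. The log2 fold change was 0.31 (-0.12 to 0.74, adjusted p = 0.249) in DGCR8 KO, and Axin2 fell by 0.56 on the log2 scale (SE 0.21, adjusted p = 0.0432) in DDX6 KO. The direct contrast was 0.88 (SE 0.20, adjusted p = 0.00199), higher in DGCR8 KO.
The fall of Axin2 in DDX6 KO missed the threshold under 9 of 21 alternatives, with adjusted p from 0.0546 to 0.311. Among these, WT 1 (adjusted p = 0.119), WT 3 (0.181), the first or second library of clone 1 (0.0754 and 0.141) or the second of clone 2 (0.0674) was left out.

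Nkd1 (chr8:88521354-88594884), which encodes an inhibitor that binds Dishevelled, was close to the limit of detection. Its counts were 8, 1 and 4 in WT, 0, 2 and 1 in DGCR8 KO, and 8, 6, 9 and 4 in DDX6 KO. It reached 3 CPM in 1 WT library, in no DGCR8 KO library and in 2 DDX6 KO libraries, and so passed the filter partly through the group in which it was high. Against WT the log2 fold change was -1.42 (-3.36 to 0.53, adjusted p = 0.25) in DGCR8 KO and 0.98 (-0.40 to 2.36, adjusted p = 0.263) in DDX6 KO. The direct contrast was -2.39 (SE 0.84, adjusted p = 0.0278). That value rests on 3 counts over the DGCR8 KO libraries and 27 over those of DDX6 KO, and was lost under 5 of 20 alternatives, with adjusted p of 0.0512 to 0.169. These were the use of clone 2 alone (0.103) and the absence of DGCR8 KO 1 (0.169), DGCR8 KO 3 (0.0559), the first library of clone 1 (0.0547) or the first of clone 2 (0.0512).

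Among the transcription factor targets, Sp5 rose in DGCR8 KO, Cdx1 fell in both knockouts, and T was at the floor. Sp5 (chr2:70474923-70477729) encodes a zinc finger factor that acts downstream of β-catenin and carries the CTTTGATC element shown above. Its level was 9.60, 6.13 and 12.04 CPM in WT, 53.6, 17.98 and 46.8 CPM in DGCR8 KO, and 4.76, 4.17, 3.17 and 4.76 CPM in DDX6 KO. No library of a group overlapped another group, and the second DGCR8 KO library lay well under the other two. Sp5 rose by a log2 fold change of 1.93 (SE 0.39, adjusted p = 0.000854) in DGCR8 KO. In DDX6 KO the difference was -1.11 (-2.24 to 0.02, adjusted p = 0.118), which did not pass the threshold in limma with voom. Sp5 did pass it, as lower in DDX6 KO, in edgeR's quasi-likelihood test (adjusted p = 0.0302), in DESeq2 (0.0154) and in limma without DGCR8 KO 2 (0.0119), and over all 21 alternatives its adjusted p ran from 0.0119 to 0.391. The knockouts differed by 3.04 (SE 0.46, adjusted p = 4.23e-05).

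Cdx1, on chromosome 18, encodes a homeobox factor of the posterior embryo. WT libraries held 23.0, 18.7 and 23.4 CPM, DGCR8 KO libraries 16.8, 12.2 and 11.8 CPM, and DDX6 KO libraries 8.06, 11.8, 10.9 and 8.12 CPM. All knockout libraries lay under the WT range, and the knockouts overlapped at 11.8 CPM. Cdx1 fell by 0.67 (SE 0.22, adjusted p = 0.0242) in DGCR8 KO and by 1.18 (SE 0.22, adjusted p = 0.000477) in DDX6 KO on the log2 scale. The difference between the knockouts was 0.51 (SE 0.24, adjusted p = 0.0939). The fall in DGCR8 KO missed the threshold without WT 1 (adjusted p = 0.051), WT 3 (0.0963), DGCR8 KO 2 (0.0805) or DGCR8 KO 3 (0.0743).

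T (chr17:8434423-8442496), the gene of Brachyury, marks the primitive streak. It had 0, 1 and 10 counts in WT, 1, 2 and 1 in DGCR8 KO, and 0, 4, 1 and 0 in DDX6 KO. Only WT 3 and 1 DDX6 KO library exceeded 3 counts, so no fold is given, and a difference between groups was not detectable at this depth. Of 8 other markers of the primitive streak and mesoderm, 3 passed the filter, and the summed level of the 8 was 17.7 to 27.9 CPM in WT, 18.3 to 37.7 CPM in DGCR8 KO and 15.4 to 26.4 CPM in DDX6 KO. Of those 3, 1 was called in DGCR8 KO, as higher, and 1 in DDX6 KO, as lower. That is 33.3% in each, beside 14.7% and 11.2% of all tested genes. Evx1, a homeobox gene, rose in DGCR8 KO by 3.31 on the log2 scale (SE 0.63, adjusted p = 0.000457). In DDX6 KO it was at 0.76 (adjusted p = 0.446), and it lies on chromosome 6, whose median was 0.59 higher there. Evx1 passed the filter only through DGCR8 KO, where it was high, and was at most 2.40 CPM in WT and 2.46 CPM in DDX6 KO. Gsc, the gene of goosecoid, was at 0.31 in DGCR8 KO (adjusted p = 0.638) and fell by 1.77 in DDX6 KO (SE 0.61, adjusted p = 0.0322). The Gsc call rests on 12 counts over the DDX6 KO libraries. None of these reached 3 CPM, so Gsc passed the filter only through WT and DGCR8 KO. The call was lost with clone 1 alone (adjusted p = 0.0956), clone 2 alone (0.17) or the library number as a replicate block (0.0775). It was also lost without WT 2 (0.103), WT 3 (0.0955), the first or second library of clone 1 (0.0511 and 0.0944) or the first of clone 2 (0.0952). Eomes did not pass the test in either, at -0.43 and -0.12 (adjusted p = 0.335 and 0.776). Primitive endoderm markers, 6 genes of which only Dab2 passed the filter, summed to 7.58 to 11.04 CPM in WT, 3.26 to 4.75 CPM in DGCR8 KO and 16.5 to 24.2 CPM in DDX6 KO. These sums mostly follow Dab2, whose means were 6.29 CPM in WT, 1.06 CPM in DGCR8 KO and 16.6 CPM in DDX6 KO. The other markers were low and did not all follow it. Gata4 was at 1.42 CPM in WT and 1.43 CPM in DDX6 KO, and Pdgfra at 0.34 CPM in WT and 1.87 CPM in DGCR8 KO. No gene of these lists was at 0 in all libraries. The part of either cell type in the values of the 10 genes was not tested, and in bulk RNA fewer cells of a type and less RNA per cell cannot be told apart.

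A gene was called at an adjusted p under 0.05 with a log2 fold change beyond 1. In DGCR8 KO 2 of the 9 tested genes were called, Tcf7l2 and Sp5, where 14.7% of all tested genes were called. In DDX6 KO 2 of 9 were called, Lef1 and Cdx1, both lower, where 11.2% of all genes were called. Lef1 had passed the filter only through WT and DGCR8 KO. The direct contrast called 3 of 9, Lef1 and Sp5 as higher and Nkd1 as lower in DGCR8 KO, where the share over all genes was 17.1%. On adjusted p alone the counts were 3, 4 and 5 of 9, beside 36.3%, 34.5% and 44.0% of all genes. With 9 genes chosen by name, these counts say nothing of the pathway as a whole. The median log2 fold change over the 9 was 0.02 in DGCR8 KO and -0.13 in DDX6 KO, beside 0.00 and 0.02 over all tested genes. Both knockouts were set against the same WT libraries, so their values stand side by side and were not correlated.

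**Figure D2:**
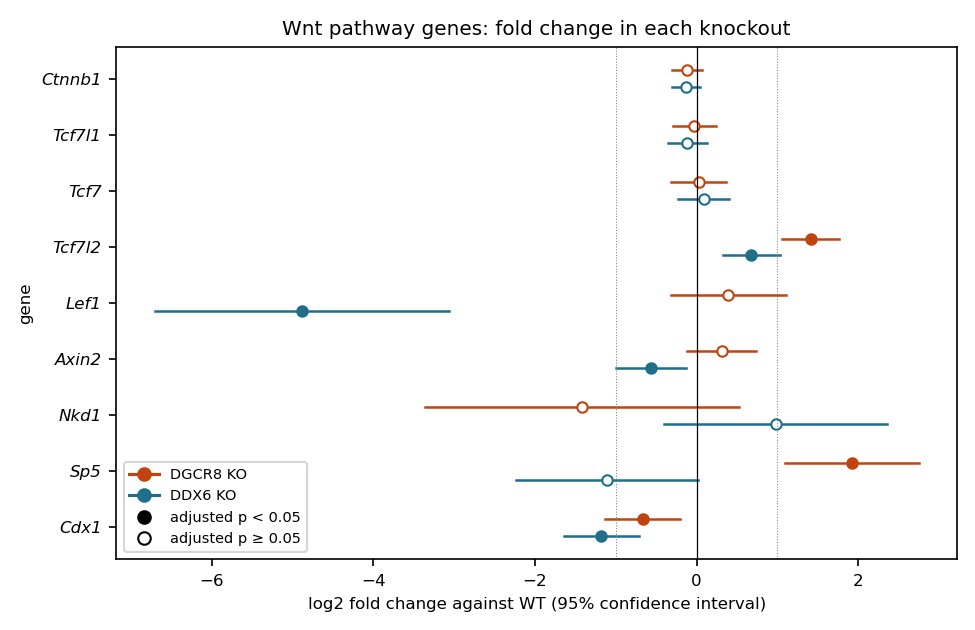
Log2 fold change against WT of the 9 tested genes in DGCR8 KO and DDX6 KO, with 95% confidence intervals from the fit across all genes; filled points have an adjusted p under 0.05 and dotted lines mark a log2 fold change of 1. Tcf7l2 lies to the right of 0 and Cdx1 to the left in both knockouts, and the interval of Lef1 in DDX6 KO runs from -6.71 to -3.07.

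The genes that moved in DDX6 KO were read in each clone apart. Between clone 2 and clone 1, limma called 0 of the 9 genes, with 0 at an unadjusted p under 0.05, and 0.0428% of all genes, Ddx6 itself among them. No other tool was run on this contrast. Lef1 was lower than WT in clone 1 (adjusted p = 0.0115) and in clone 2 (adjusted p = 0.00323), with counts of 1 and 3 and of 1 and 0. All of these counts are at or under the floor, and Lef1 was tested only through WT and DGCR8 KO, where it was higher. Cdx1 fell by 1.13 on the log2 scale in clone 1 (SE 0.29, adjusted p = 0.00929) and by 1.22 in clone 2 (SE 0.28, adjusted p = 0.00508). Tcf7l2 rose by 0.80 in clone 1 (SE 0.19, adjusted p = 0.00661) and by 0.57 in clone 2 (SE 0.20, adjusted p = 0.0426).
Axin2 passed the threshold in clone 1, where it fell by 0.79 (SE 0.26, adjusted p = 0.0362), and in clone 2 its value was -0.35 (-0.85 to 0.14, adjusted p = 0.296). That difference between the clones, 0.44 (-0.17 to 1.05), was itself not past the threshold. Sp5 was at -1.02 (-2.51 to 0.46) in clone 1 and -1.19 (-2.68 to 0.30) in clone 2. With 2 libraries per clone the intervals are wide, so values near 0 do not show that the clones were alike.

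**Figure D3:**
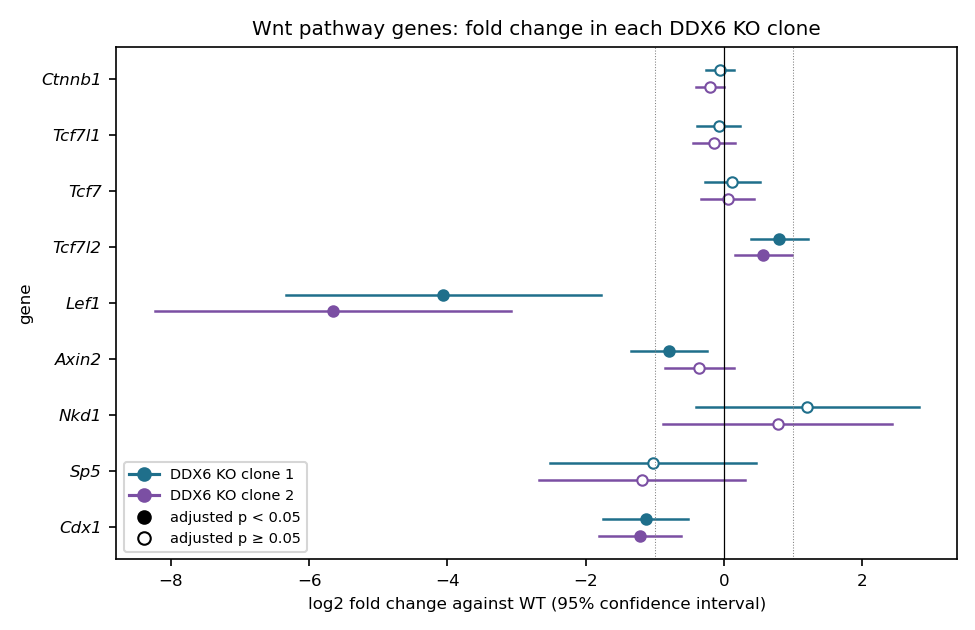
Log2 fold change against WT of the 9 tested genes in each DDX6 KO clone, with 95% confidence intervals; filled points have an adjusted p under 0.05. Both clones lie on the same side of 0 for each gene, and Lef1, Cdx1 and Tcf7l2 are filled in both.

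Tcf7l1 and Nkd1 lie on chromosomes whose expression was shifted as a whole. Over the other 560 tested genes of chromosome 6, which carries Tcf7l1, the median difference from the WT mean was 0.53 to 0.65 on the log2 scale in the DDX6 KO libraries. The log2 fold change of Tcf7l1, -0.11, lay under the chromosome median of 0.59 by 0.71. Over the other 643 tested genes of chromosome 8, which carries Nkd1, the medians were -0.51 to -0.38 in the DGCR8 KO libraries. Nkd1 itself was at -1.42 and the chromosome median at -0.45, a remainder of -0.96. The median taken off was smaller in size than the SD of Nkd1 between replicates. What shifted these chromosomes was not tested. For each of the other 7 tested genes, the median of its chromosome stayed between -0.01 and 0.10 in both knockouts.

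**Figure D4:**
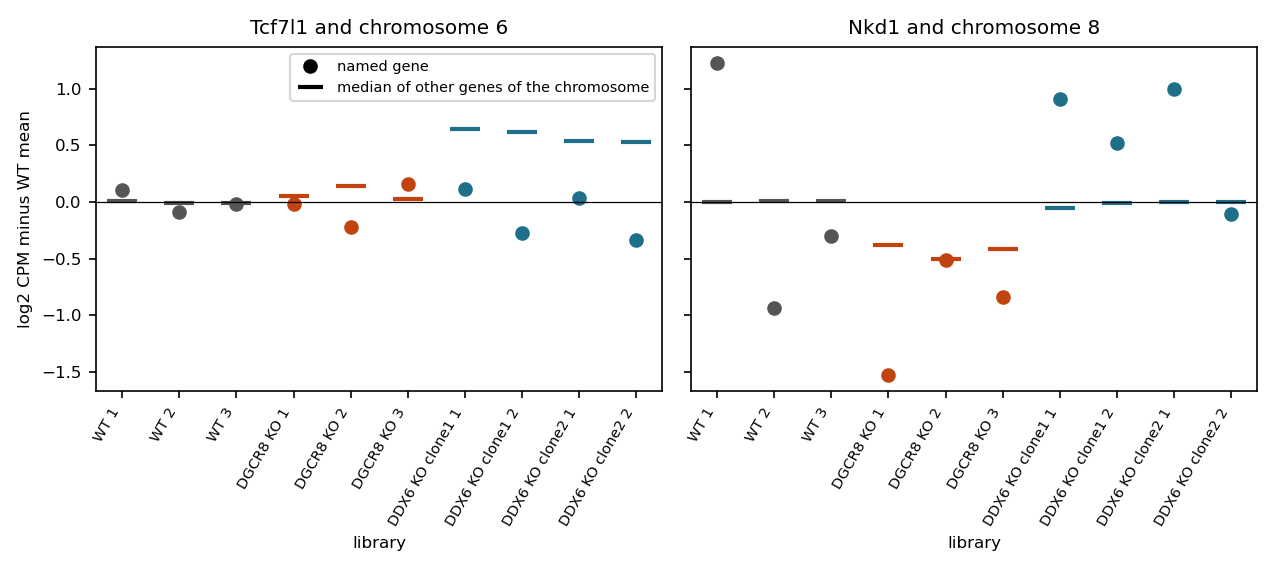
Log2 CPM minus the WT mean in each library for Tcf7l1 and Nkd1 (points), beside the median over the other tested genes of the same chromosome (horizontal marks). Chromosome 6 lies above 0.5 in all 4 DDX6 KO libraries while Tcf7l1 stays between -0.33 and 0.12, and chromosome 8 lies at -0.38 or lower in all 3 DGCR8 KO libraries.

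Around these genes, 8 lists of 96 further genes of the pathway were read, from ligand to target, of which 52 passed the filter. In DGCR8 KO 7 were called higher and 3 lower, 19.2% of 52 beside 14.7% of all tested genes, with a median log2 fold change of 0.12 beside 0.00. In DDX6 KO 4 were called, all higher, 7.69% of 52 beside 11.2%, with a median of 0.17 beside 0.02. Outside the shifted chromosomes 6 and 8, 10 of 47 were called in DGCR8 KO (21.3%, median 0.10). In DDX6 KO 3 of 47 were called there (6.38%, median 0.11). The direct contrast called 4 higher and 4 lower, 15.4% of 52 beside 17.1%, with a median of 0.03 beside 0.00. Leaving out the second library of clone 2 reduced the direct count from 8 to 5.

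Upstream of β-catenin, most Wnt ligand genes were too low to test, and only Wnt5b and Wnt7b passed the filter. Porcn, the acyltransferase that every Wnt needs for secretion, rose from 9.12, 7.16 and 12.04 CPM in WT to 87.0, 47.2 and 51.3 CPM in DGCR8 KO, a log2 fold change of 2.63 (SE 0.30, adjusted p = 2.79e-06). In DDX6 KO it was at 26.6 to 38.8 CPM and rose by 1.76 (SE 0.31, adjusted p = 0.000278). Of 11 tested receptor genes, DGCR8 KO had 2 called higher and 1 lower, and DDX6 KO had 3, all higher, which is 27.3% of 11 in each beside 14.7% and 11.2% of all tested genes. The Frizzled receptor gene Fzd7 rose in both, by 1.80 (SE 0.38, adjusted p = 0.00124) in DGCR8 KO and by 1.66 (SE 0.37, adjusted p = 0.00212) in DDX6 KO. Fzd10 rose by 1.07 and Fzd9 fell by 1.47 in DGCR8 KO (adjusted p = 0.000187 and 0.0126). Fzd9 had 19 counts over the DGCR8 KO libraries, at most 9 in any. It passed the filter only through WT and DDX6 KO, where it was higher. Without WT 3 or DGCR8 KO 1 the change of Fzd10 was under the fold limit (0.83 and 0.95), and without DGCR8 KO 3 Fzd9 missed the threshold (adjusted p = 0.0509). Between the knockouts Fzd10 was higher in DGCR8 KO by 1.45 (adjusted p = 4.19e-06), and Fzd9 was at -1.24 (adjusted p = 0.0262). The latter was lost with clone 1 alone (adjusted p = 0.0861) or clone 2 alone (0.051). It was also lost without DGCR8 KO 1 (adjusted p = 0.0718), DGCR8 KO 3 (0.103), the second library of clone 1 (0.0589) or the second of clone 2 (0.0511).
In DDX6 KO, Fzd3 rose from a mean of 6.25 CPM in WT to 12.4 CPM, by 1.07 (SE 0.34, adjusted p = 0.0195). The Fzd3 call was lost under 6 of 21 alternatives. It was lost with the library number as a replicate block (0.84, adjusted p = 0.0727), with clone 1 alone (adjusted p = 0.0848), and without WT 2 (0.0822), WT 3 (0.075) or the second library of clone 2 (0.0603), while limma-trend put it under the fold limit (0.94). The co-receptor gene Lrp6 rose by 1.21 (SE 0.16, adjusted p = 1.71e-05). Lrp6 lies on chromosome 6, whose median was itself 0.59 higher. Lgr4, the R-spondin receptor, rose by 1.04 in DGCR8 KO (SE 0.16, adjusted p = 7.55e-05), and by 0.96 or 0.91, under the fold limit, without WT 3 or DGCR8 KO 2. Znrf3, a ligase that removes Frizzled receptors, rose by 0.90 in each knockout (adjusted p = 0.00599 in DGCR8 KO and 0.00458 in DDX6 KO), and passed in neither without WT 3 (adjusted p = 0.0863 and 0.0848). Of 11 tested genes of the Dishevelled and destruction complex list, 1 rose and 1 fell in each knockout on adjusted p alone, 18.2% of 11, where the shares over all tested genes were 36.3% for DGCR8 KO and 34.5% for DDX6 KO. Among them were Gsk3b, which encodes a target of CHIR99021 and rose by 0.64 in DGCR8 KO (SE 0.11, adjusted p = 0.000195), and Dvl2, which fell by 0.64 in DDX6 KO (SE 0.13, adjusted p = 0.000924).

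Of 4 tested secreted or membrane inhibitors and 4 other targets, 2 and 3 were called in the direct contrast of the knockouts, where 17.1% of all tested genes were called. Notum, which encodes an enzyme that inactivates Wnt proteins and is a known target of the pathway, was at 11.04, 9.88 and 10.9 CPM in WT, 45.0, 95.02 and 25.7 CPM in DGCR8 KO and 5.56 to 11.96 CPM in DDX6 KO. It rose by 2.19 in DGCR8 KO (SE 0.41, adjusted p = 0.000373), was at -0.38 (-1.42 to 0.65, adjusted p = 0.58) in DDX6 KO, and differed between the knockouts by 2.57 (SE 0.40, adjusted p = 5.36e-05). Ccnd1, the gene of cyclin D1, rose by 1.42 in DGCR8 KO (SE 0.14, adjusted p = 6.12e-07) and fell by 0.45 in DDX6 KO (SE 0.14, adjusted p = 0.0211). That fall missed the threshold without WT 3 (adjusted p = 0.188) or the first library of clone 1 (0.0607). It also missed it with clone 2 alone (0.157) and with total counts in place of TMM (0.0711). Msx2, a homeobox gene, was at 9.60, 6.47 and 2.01 CPM in WT and at 18.7, 12.9 and 6.11 CPM in DGCR8 KO, ranges that overlapped. It rose in DGCR8 KO (95% confidence interval 0.52 to 2.48, adjusted p = 0.0172) and, at a mean of 5.23 CPM, missed the threshold in DDX6 KO (adjusted p = 0.66). The DGCR8 KO call of Msx2 was lost in DESeq2 (adjusted p = 0.0538) and limma-trend (0.0651), and without WT 3 (0.283) or DGCR8 KO 1 (0.106). Its call between the knockouts (1.18, adjusted p = 0.0327) was lost under 9 of 20 alternatives, with any DDX6 KO library (adjusted p = 0.0522 to 0.0822), DGCR8 KO 1 (0.2) or DGCR8 KO 2 (0.0605) left out among them. Sfrp5, a secreted antagonist at 0.612 to 10.1 CPM over all libraries, was lower in DGCR8 KO than in DDX6 KO by 2.56 (SE 0.64, adjusted p = 0.00333). It was at most 2.68 CPM in WT and 1.22 CPM in DGCR8 KO, and so passed the filter only through DDX6 KO, where it was high. That value rests on 7 counts over the DGCR8 KO libraries and 73 over those of DDX6 KO.
Tbx3, which rose in DDX6 KO by 0.59 (adjusted p = 0.000179) and fell in DGCR8 KO by 0.43 (adjusted p = 0.00523), was lower in DGCR8 KO in the direct contrast by 1.02 (SE 0.10, adjusted p = 3.3e-07). Without WT 3 its fall in DGCR8 KO missed the threshold (adjusted p = 0.0503), and without DGCR8 KO 2 the direct contrast was -0.96, under the fold limit.

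Of 12 tested nuclear cofactors, 2 were called in DGCR8 KO, both lower, 16.7% beside 14.7% of all tested genes. Aes, a short Groucho-family repressor, was at 99.4 to 122 CPM in WT and 42.4 to 55.0 CPM in DGCR8 KO, and fell by 1.203 (SE 0.16, adjusted p = 1.2e-05). Ctnnbip1, an inhibitor that keeps β-catenin from TCF factors, fell by 1.05 (SE 0.15, adjusted p = 2.3e-05), and by 0.86, under the fold limit, without DGCR8 KO 2. In DDX6 KO both also fell, Aes by 0.71 (adjusted p = 0.000708) and Ctnnbip1 by 0.44 (adjusted p = 0.0139). The latter missed the threshold without WT 3 (adjusted p = 0.0527) or the first library of clone 2 (0.0503). It also missed it with clone 1 alone (0.168) and with total counts in place of TMM (0.057). Cby1, another β-catenin antagonist, was lower in DGCR8 KO than in DDX6 KO by 1.08 (SE 0.28, adjusted p = 0.0045), and by 0.97 or 0.87 without DGCR8 KO 2 or the second library of clone 2.
The 4 naive genes known to be repressed by TCF7L1 did not all move in 1 direction. On adjusted p alone 1 rose and 2 fell in DGCR8 KO, and 2 rose and 1 fell in DDX6 KO. That is 75% in each, beside 36.3% and 34.5% of all tested genes. Nanog fell by 0.33 in DGCR8 KO (adjusted p = 0.0281) and rose by 0.62 in DDX6 KO (adjusted p = 0.000171), and it lies on chromosome 6, with its median of 0.59. Klf2, on chromosome 8, rose by 0.92 in DGCR8 KO (adjusted p = 2.21e-05) and by 0.36 in DDX6 KO (adjusted p = 0.0273). The median of chromosome 8 was -0.45 in DGCR8 KO. Tfcp2l1 fell by 0.41 and 0.50 (adjusted p = 0.0382 and 0.0103), and Esrrb was at 0.00 and 0.07 (adjusted p = 0.99 and 0.644). With clone 1 alone, Klf2 in DDX6 KO missed the threshold (adjusted p = 0.222). Tfcp2l1 in DDX6 KO missed it with clone 1 alone (0.0536) or clone 2 alone (0.0503). In DGCR8 KO Tfcp2l1 missed it in edgeR's quasi-likelihood test (adjusted p = 0.0557) and in limma-trend (0.0602). Leaving out WT 3 took Tfcp2l1 (adjusted p = 0.226 and 0.102) and Klf2 in DDX6 KO (0.183) over the threshold. So did leaving out WT 2, DGCR8 KO 1 or DGCR8 KO 2 for Tfcp2l1 in DGCR8 KO (0.0968 to 0.164), WT 1, WT 2, DGCR8 KO 1 or DGCR8 KO 3 for Nanog in DGCR8 KO (0.0893 to 0.113), and WT 2 or any DDX6 KO library but the second of clone 1 for Klf2 in DDX6 KO (0.0511 to 0.0924).

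**Figure D5:**
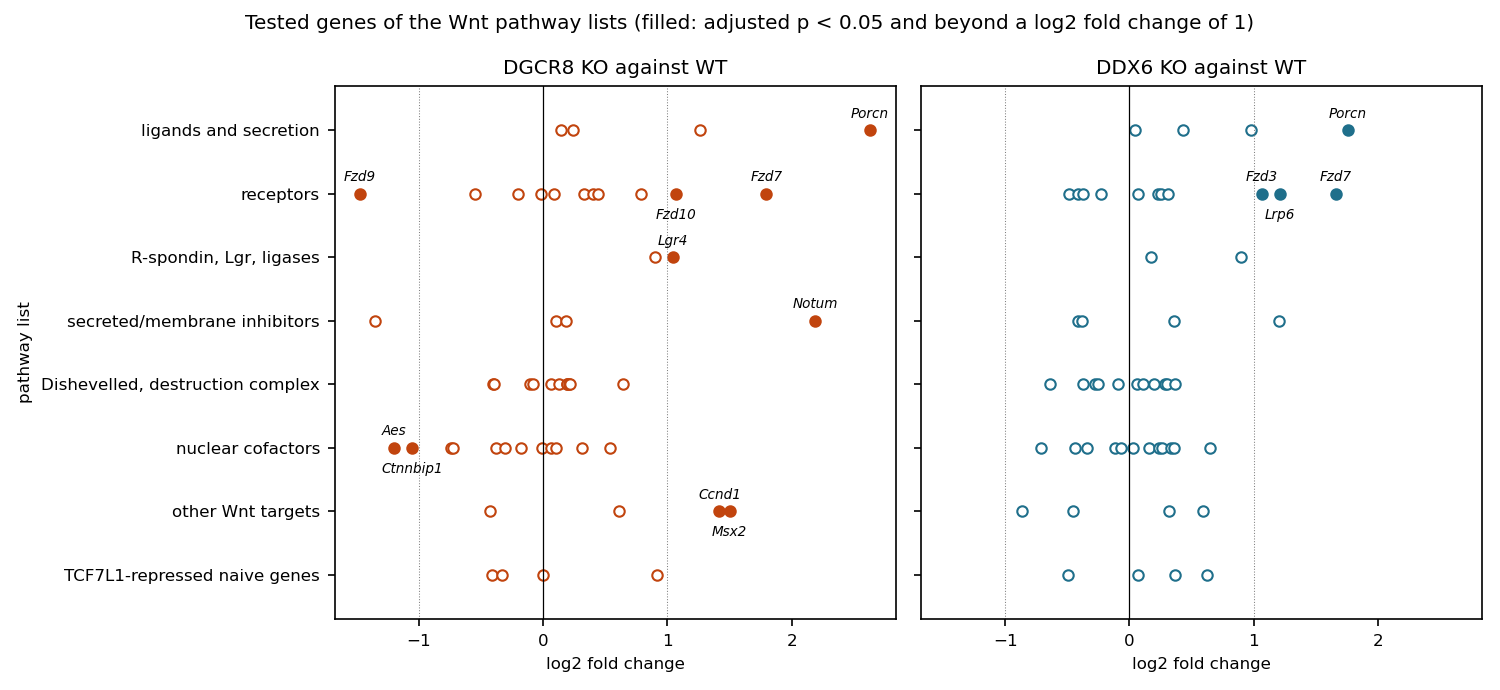
Log2 fold change against WT of the 52 tested genes of the 8 pathway lists, in DGCR8 KO (left) and DDX6 KO (right); each point is a gene, and filled points with names are called at an adjusted p under 0.05 beyond a log2 fold change of 1. Porcn and Fzd7 are filled on both sides, while Notum, Ccnd1, Msx2, Aes and Ctnnbip1 are filled on the left.

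For 4 of the 5 genes called in any contrast, the most alike patterns over the 10 libraries were looked up among the 8342 named genes that averaged 10 CPM or more. Tcf7l2 was most like Gigyf1, Ankib1 and Tmem87b, each with Pearson r = 0.978, and these were likewise lowest in WT and highest in DGCR8 KO. For Sp5 they were Gon4l (r = 0.988), Tenm4 (0.979) and Nefl (0.975), a neurofilament gene at a mean of 96.2 CPM in WT, 486 CPM in DGCR8 KO and 25.5 CPM in DDX6 KO. Camk2b (0.983), Phlda3 (0.966) and Hmga2 (0.961) were closest to Cdx1. The genes closest to Nkd1, Mief1, Pdzd4 and Cdc42bpg (r = 0.901 to 0.923), follow a pattern that rests on few counts. The 10 points share group, depth and scaling, so such values are descriptive.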

How the data were processed

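The deposited values are raw counts of uniquely mapped QuantSeq reads, which tag the 3′ end of polyadenylated RNA, per gene in 10 libraries. Per the labels, the study's methods and the file headers, the authors trimmed reads with cutadapt 1.14, aligned them to mm10 with STAR 2.5.3a and counted them with featureCounts 1.5.3. No molecular identifiers are stated, so floors cover counting error only. Counts are not divided by length and were compared within a gene. Spike-in sequences were set apart.

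Groups were read from titles. Counts were scaled by TMM in edgeR 4.0.16, which also gives the CPM printed, and tested with limma-voom (limma 3.58.1, R 4.3.3) in 1 model of all 10 libraries with group as its term, and in a second with a group per clone. P-values are two-sided and adjusted (Benjamini-Hochberg) over all 11683 genes tested. The study used limma without stating the transformation. SE and 95% intervals are those of the fit. The script was tested on simulated counts. edgeR's quasi-likelihood test and DESeq2 1.42.0 were alternatives. Gene names came from Gencode identifiers. Sequences came from RefSeq tables and Gencode M21 (both GRCm38).

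The members and lists were chosen with earlier results of these data known. All members, the list genes called in a contrast and the targeted genes are named, with list genes named on adjusted p alone added after their values were seen. Genes of like pattern, the 3 highest Pearson r for each called member, are not reported here for Lef1.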

Additional observations from a re-analysis of the deposited data

Results flagged for a closer look

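In DDX6 KO, the second library of clone 1 stood apart from the other 3 for 2 of 27 genes checked. Tcf7l2 was at 69.9 CPM there against 50.9 to 53.5 CPM, and Msx2 at 3.83 CPM against 5.60 to 5.86 CPM. Chance marks about 1 group in 20 in this way. Without that library the log2 fold change of Tcf7l2 in DDX6 KO was 0.58 (adjusted p = 0.0147).

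Of the genes named, only Ddx6 differed between the DDX6 KO clones, with a log2 difference of -2.18 for clone 2 against clone 1 (adjusted p = 3.1e-05, limma).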

How the results depend on the processing

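Every member fold change carried through the alternatives kept its direction, and 233 of 251 kept their side of the threshold. The 18 that did not belong to Axin2 in DDX6 KO, Cdx1 in DGCR8 KO and Nkd1 between the knockouts, all with adjusted p over 0.01 in the fit reported. Sp5 in DDX6 KO, not past the threshold there, passed it under 3 of 21. Without the fold limit, the genes called were 4 in DDX6 KO and 5 in the direct contrast among members, and 19, 17 and 27 among the list genes in DGCR8 KO, DDX6 KO and the direct contrast, since fewer conditions were set. With total counts in place of TMM, 7 list genes were called in DDX6 KO; the cause was not tested. Leaving out 1 library at a time gave 5 to 10 list genes in the direct contrast. Less its chromosome's median, Tcf7l1 in DDX6 KO was at -0.71. At a filter of 10 CPM, Nkd1 could not be tested. Genes under about 10 counts per library, here Nkd1 and T, are limited by depth.

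To see whether library numbers pair, log2 CPM less the group mean was correlated over tested genes between libraries of different groups. The correlation was -0.08 to 0.28 between same-numbered libraries (8 of 11 pairs over 0.1) and -0.26 to 0.17 between others (2 of 22). Deviations from a group mean cancel within the group, so these ranges are not independent. The 3 pairs of WT and DGCR8 KO were all over 0.1 and those with DDX6 KO were not all, and the labels do not say what a number marks. With the number as a replicate block, 2, 2 and 3 members and 11, 4 and 9 list genes were called in DGCR8 KO, DDX6 KO and the direct contrast, against 2, 2, 3, 10, 4 and 8 without it. The 4 in DDX6 KO were not the same genes, since Fzd3 was lost (adjusted p = 0.0727) and Sfrp5 added (0.0276). Wnt5b in DGCR8 KO and Sp8 in the direct contrast were added.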
